A study of Schizosaccharomyces pombe with 6 samples.

Results

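Genes of DNA repair and the DNA damage checkpoint were examined in wild-type fission yeast given sodium hydrogen sulfide (NaHS), which sets hydrogen sulfide free in solution. They were chosen by their symbols. A probe set was taken when the annotation of the array paired it with 1 *S. pombe* gene whose name begins with rad, rhp, msh, mlh, mus, crb, cds, chk, nbs, exo, apn or uve followed by a number. This gave 48 genes, each with 1 probe set, among the 2917 probe sets paired with 1 *S. pombe* gene and the 4965 probe sets tested. The names do not describe function in every case: crb3 encodes a factor of ribosome synthesis, exo2 an RNA exonuclease and exo70 a subunit of the exocyst, which docks secretory vesicles.

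Each of 6 cultures of the haploid wild-type strain 972 h- was hybridised to 1 Affymetrix Yeast Genome 2.0 array. All cultures had been grown in liquid medium to an OD600 of 0.5, and 3 of them then received NaHS (50 µM, 30 min, 30°C) while 3 were left untreated. Growing cultures of 1 haploid strain hold cells in all phases of the cycle, and an array shows only the mean of the culture. Values are on a log2 scale, where a step of 1 means a doubling. Levels of different genes served only for a background level, for medians of gene sets and for the choice of genes to print. They were not otherwise set against each other, since probe sets differ in brightness. The comparison asks how the RNA of each gene differed after hydrogen sulfide.

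Cells detect damaged or stalled DNA with a clamp made of Rad1, Rad9 and Hus1 and with the kinase Rad3, and pass the signal through mediators to the kinases Cds1 and Chk1, which hold the cell cycle. Broken chromosomes are mended by homologous recombination, bulky and ultraviolet damage by nucleotide excision repair, and mispaired bases by mismatch repair. In growing cells much of this control works on the proteins themselves, and RNA levels show only 1 layer of it.

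All 48 genes had a mean signal above 3.67, the 99th percentile of the 2601 probe sets for budding yeast, which should find no RNA of their own here and serve as background. The median signal of the 4965 tested probe sets lay between 9.49 and 9.58 on the 6 arrays, and that of the 48 genes between 8.52 and 8.71. The arrays numbered 1 stood apart in both groups. Of 5 genes of M cells, the mating type of h- cells, 4 (mfm2, mfm3, mam1 and mam2) lay above background on all 6 arrays, and the pheromone gene mfm1 did so on 3. The 3 genes of P cells (map1, map2 and map3) also lay above background on all 6 arrays. So did all 5 meiosis genes that were read (mei4, rec8, spo6, mde2 and dmc1). A signal above 3.67 thus does not by itself show that a gene is in use, and the part of this in the results was not tested.

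Of the 48 genes, 3 rose after NaHS treatment and 1 fell at an adjusted p below 0.05. The genes that rose were rhp16, which acts in nucleotide excision repair, and rad50 and rhp54, which act on broken DNA. The gene that fell was crb3, whose known role is in ribosome synthesis and not in repair. The 4 genes make 8.33% of the 48, and 7.63% of all tested probe sets passed the same test, 3.97% with higher and 3.67% with lower values, so the share is near that of the array as a whole. Without adjustment, 8 of the 48 genes (16.7%) and 22.5% of all tested probe sets had a p below 0.05. The median log2 fold change was 0.01 for the 48 genes and 0.01 for all tested probe sets. The middle of the distribution, between the lower and the upper quartile, reached from -0.13 to 0.14 in both. A fold over 1.5 was found for 1 gene of the 48, rhp16, and for 6.06% of all tested probe sets. A fold over 1.5 together with a passed test was found for the same gene and for 4.01% of all tested probe sets. A fold over 1.2 was found for 11 of the 48 genes and for 26.1% of all.

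**Figure D1:**
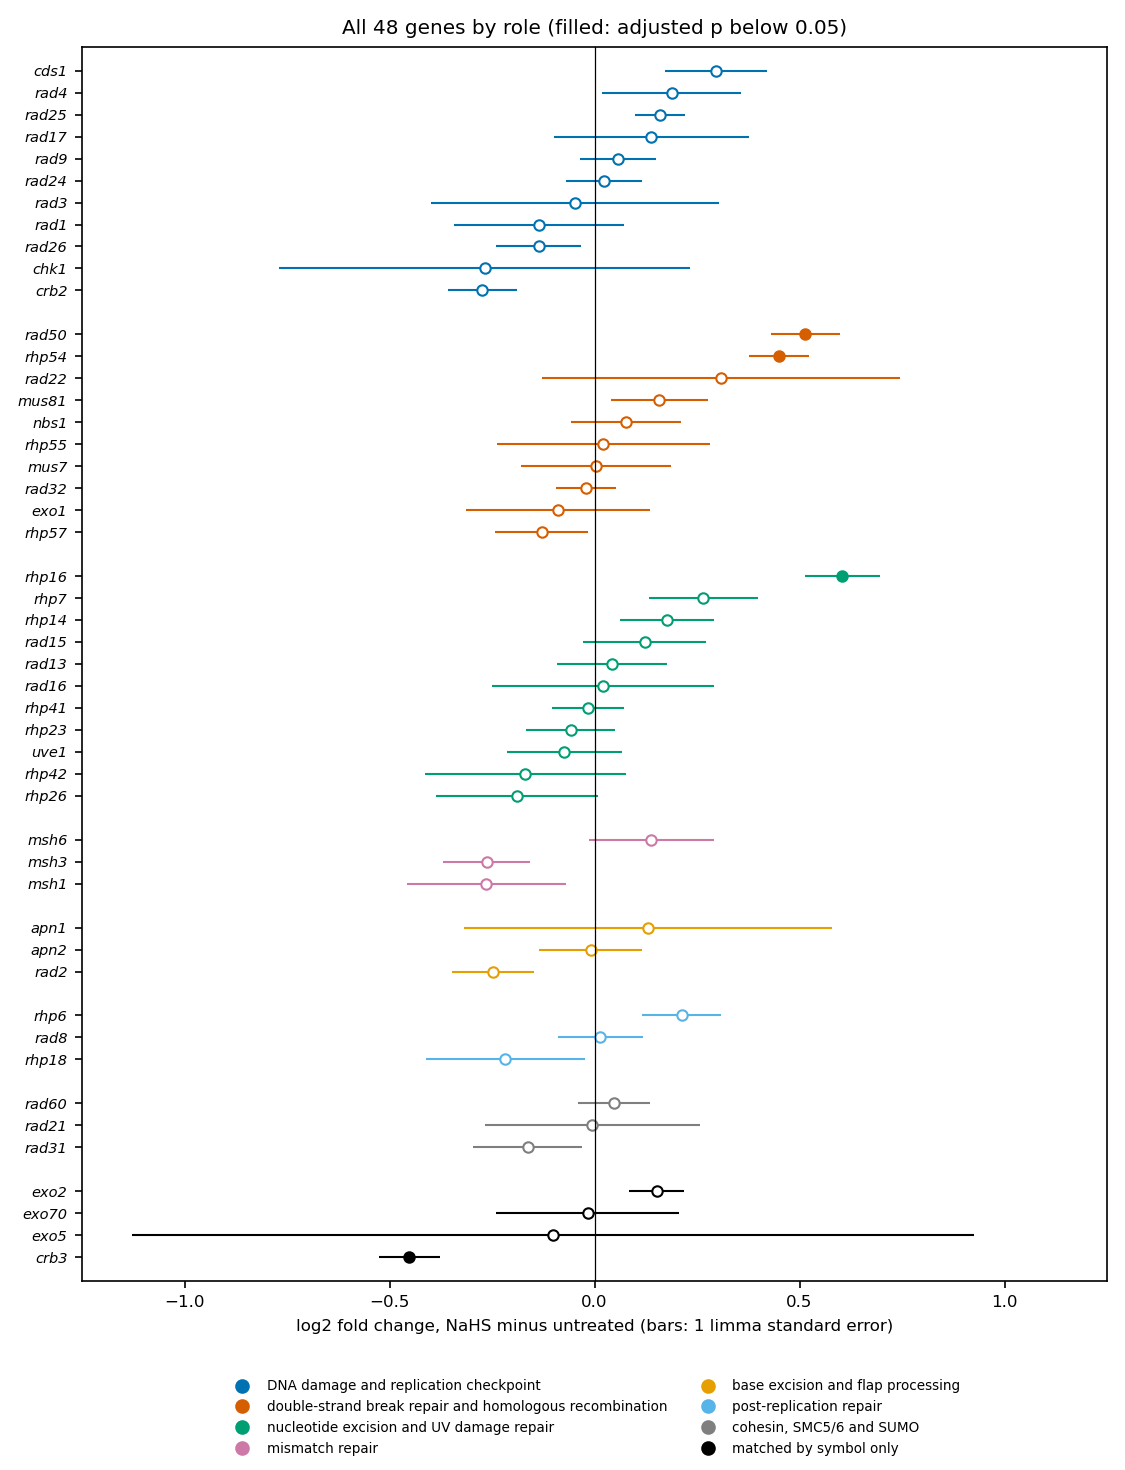
Log2 fold change of each of the 48 genes, NaHS minus untreated, on the horizontal axis, with genes on the vertical axis ordered within roles by colour; bars are 1 limma standard error (SE), n = 3 arrays per group, and filled points passed the test. The filled points are rad50, rhp54 and rhp16 on the right and crb3 on the left, and the longest bar is that of exo5, with an SE of 1.03.

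The number of genes that passed depended on single arrays. Leaving out NaHS replicate 3 left 3 called genes (rhp16, rad50 and rhp54), where 3.26% of all tested probe sets were called, and leaving out untreated replicate 1 left 2 (rhp16 and crb3), where 4.51% were. limma called 0 of the 48 when NaHS replicate 1 was dropped (9 had an unadjusted p below 0.05), and also 0 when untreated replicate 2 (5), NaHS replicate 2 (6) or untreated replicate 3 (6) was dropped. In these 4 fits, in the same order, the share called among all tested probe sets was 4.29%, 2.03%, 2.88% and 1.91%, and the share with an unadjusted p below 0.05 was 20.7%, 16.1%, 17.9% and 16.0%. The samples carry the same replicate numbers in both groups, and with these numbers as a block 13 of the 48 were called, among them the same 4. Of the 13, 8 were higher (16.3% of all tested probe sets) and 5 lower (16.4%), and 32.7% of all passed either way. With both arrays numbered 1 left out, the same 4 genes were called together with rhp7 and msh1, which makes 12.5% of the 48, while 14.3% of all tested probe sets were called.

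**Figure D2:**
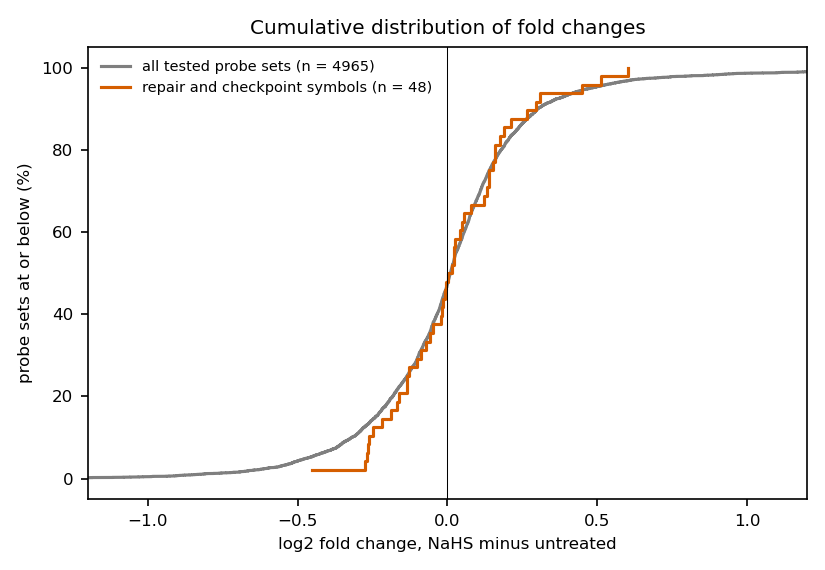
Cumulative share of probe sets, in percent on the vertical axis, at or below each log2 fold change on the horizontal axis, for the 48 genes and for all 4965 tested probe sets, of which 61 lie outside the axis. The curves run together through the middle, and the 48 genes end at -0.45 and 0.60.

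The largest change among the 48 genes was that of rhp16 (probe set 1770019_at), which encodes a helicase-like protein. In budding yeast its counterpart Rad16 works with Rad7 on ultraviolet damage in DNA that is not being transcribed. Its log2 signal was 8.37, 8.26 and 8.31 on untreated arrays 1, 2 and 3 and 9.01, 8.98 and 8.76 on NaHS arrays 1, 2 and 3. All 3 treated arrays lay above all untreated ones. The level rose 1.52-fold, a log2 fold change of 0.60 (SE 0.09, where SE is the standard error from limma, adjusted p = 0.0176). The call was lost when untreated replicate 2 or 3 or NaHS replicate 1 or 2 was dropped (adjusted p 0.0511 to 0.0973), while the log2 fold change stayed between 0.56 and 0.60. The reference lists rad16 as a second name of this gene, which is not the gene that the array calls rad16.

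The partner gene rhp7 lies beside rhp16 on chromosome III, and their annotated transcripts overlap. Its log2 signals were 8.37, 8.59 and 8.55 without NaHS and 8.52, 8.93 and 8.86 with NaHS. Each treated array was above the untreated array of the same number, but NaHS replicate 1 lay below untreated replicates 2 and 3, so the groups overlapped. The log2 fold change was 0.26 (SE 0.13) and did not pass the test (adjusted p = 0.324). It passed with the replicate block (adjusted p = 0.0285) and without both arrays numbered 1 (log2 fold change 0.32, adjusted p = 0.041). Whether rhp7 and rhp16 responded to different degrees was not tested.

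**Figure D3:**
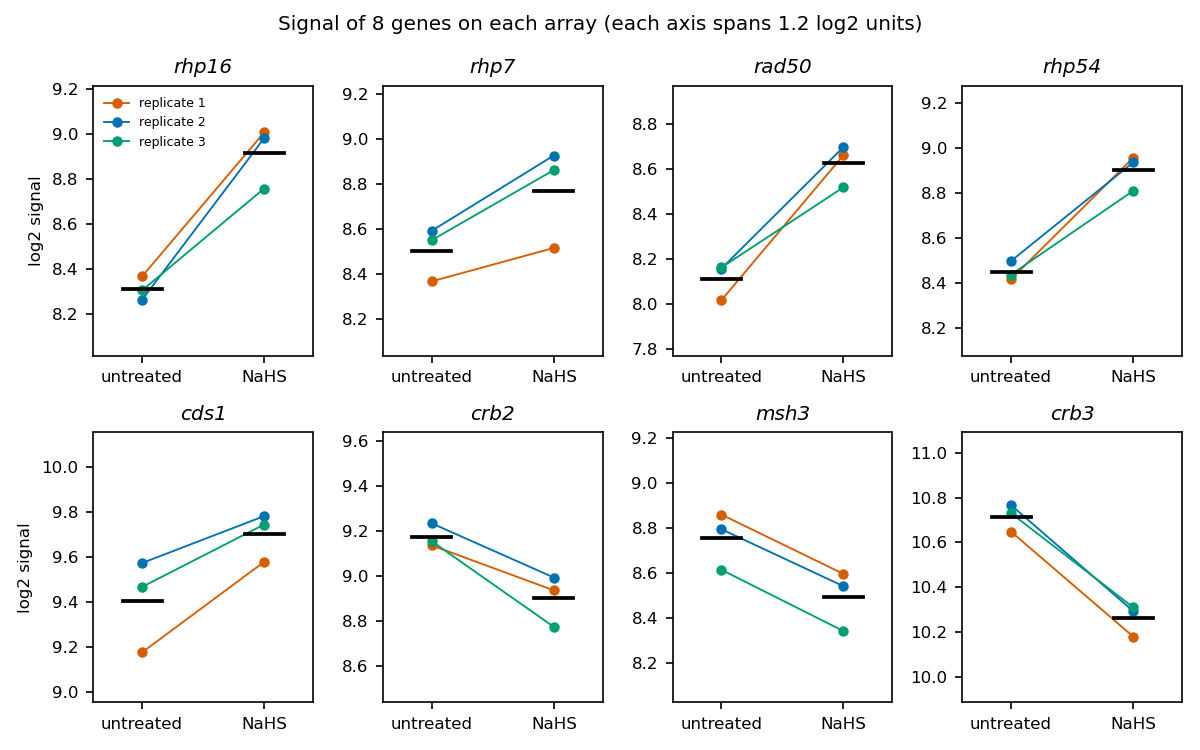
Log2 signal (vertical axis) of 8 genes on the untreated and the NaHS arrays; each line joins the 2 arrays of 1 replicate number, black bars are group means, and every axis spans 1.2 log2 units. The groups are apart for rhp16, rad50, rhp54, cds1, crb2, msh3 and crb3 and overlap for rhp7, where replicate 1 lies lowest in both groups.

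The other 9 genes of nucleotide excision and ultraviolet repair did not pass the test, and the median log2 fold change of the 11 genes was 0.02. The gene rhp14, whose human counterpart XPA checks damaged sites, had log2 signals of 8.18, 8.32 and 8.43 in untreated and 8.36, 8.68 and 8.43 in treated cells (log2 fold change 0.18, adjusted p = 0.463). rad15, a helicase of the factor TFIIH, had a log2 fold change of 0.12 (SE 0.15), and the nuclease gene rad13, the counterpart of XPG, of 0.04 (SE 0.13). The nuclease gene rad16, the counterpart of XPF, went from 8.67 ± 0.37 (SD, n = 3 arrays) to 8.69 ± 0.42 (SD, n = 3). For the damage recognition genes rhp41 and rhp42, counterparts of XPC, the log2 fold changes were -0.02 (SE 0.09) and -0.17 (SE 0.25). For rhp23, a ubiquitin-binding partner of that recognition step, it was -0.06 (SE 0.11). The gene rhp26, whose product acts in transcription-coupled repair, had log2 signals of 8.20, 7.95 and 7.81 without and 8.16, 7.76 and 7.47 with NaHS, a difference of -0.19 (SE 0.20, adjusted p = 0.699). uve1 encodes an endonuclease that opens ultraviolet lesions by a separate route, and it went from 9.35 ± 0.19 to 9.28 ± 0.19 (SD, n = 3 each).

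Of the 10 genes for the repair of double-strand breaks and damaged forks, 2 rose and 0 fell, beside 3.97% and 3.67% of all tested probe sets. Whether this role differed from the array as a whole was not tested. rad50 (probe set 1778923_at) encodes the long coiled-coil ATPase of the complex that holds and trims broken ends. Its log2 signals were 8.02, 8.16 and 8.16 in untreated cells and 8.66, 8.70 and 8.52 in treated cells, without overlap. The level rose 1.43-fold, with a log2 fold change of 0.51 (SE 0.08, adjusted p = 0.0219). The differences within replicates 1, 2 and 3 were 0.65, 0.54 and 0.36. In the 5 fits without 1 array that did not call it, every one but that without NaHS replicate 3, the adjusted p was between 0.0573 and 0.0976.

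The other genes of the same complex gave smaller values. rad32, which encodes its nuclease (Mre11), had log2 signals of 8.12, 8.28 and 8.19 without and 8.21, 8.18 and 8.14 with NaHS. nbs1, for the subunit that recruits the checkpoint kinase Tel1, had 7.94, 8.31 and 8.09 without and 8.09, 8.39 and 8.10 with NaHS. The groups overlapped for both genes, and the log2 fold changes were -0.02 (SE 0.07) and 0.08 (SE 0.13). The difference between rad50 and these genes was not tested.

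rhp54 (rad54, probe set 1772575_at) encodes a DNA translocase of homologous recombination that acts when a broken end invades the matching strand. Its log2 signals were 8.42, 8.50 and 8.44 on untreated and 8.96, 8.94 and 8.81 on NaHS arrays, without overlap. It rose 1.37-fold, a log2 fold change of 0.45 (SE 0.07, adjusted p = 0.0219). The adjusted p was 0.0413 without NaHS replicate 3 and between 0.0632 and 0.114 without any other single array.

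Other genes of homologous recombination did not pass. For rad22 (rad52), whose product binds single-stranded DNA and anneals strands, the log2 signals were 6.14, 4.64 and 5.49 without and 6.29, 5.24 and 5.67 with NaHS. Each treated array was above its untreated partner, by 0.15, 0.60 and 0.18, yet arrays of 1 group differed by more than this, and the log2 fold change of 0.31 had an SE of 0.44 (adjusted p = 0.799). The genes rhp55 (rad55) and rhp57 (rad57), whose products form a pair that assists strand exchange, had log2 fold changes of 0.02 (SE 0.26) and -0.13 (SE 0.11). mus81, whose nuclease cuts joined DNA molecules, went from 7.99 ± 0.15 to 8.15 ± 0.15 (SD, n = 3 each), higher in all 3 replicates by 0.20, 0.15 and 0.13 (adjusted p = 0.542). The resection nuclease gene exo1 and the fork repair gene mus7 had values of -0.09 (SE 0.22) and 0.00 (SE 0.18).

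Of the 11 checkpoint genes, 0 passed limma, 2 had an unadjusted p below 0.05, and 4 passed with the replicate block, 3 of them higher. Over all tested probe sets these shares were 7.63%, 22.5% and 32.7%, which also stand beside the counts of the roles below. The median log2 fold change of the 11 was 0.02. Among the sensors, the clamp genes rad1 and rad9 had log2 fold changes of -0.14 (SE 0.21) and 0.06 (SE 0.09), and the clamp loader gene rad17 of 0.14 (SE 0.24). The kinase gene rad3, the counterpart of human ATR, had log2 signals of 8.63, 7.83 and 7.95 without and 8.76, 7.85 and 7.64 with NaHS, and its partner gene rad26 8.12, 8.09 and 7.97 without and 8.10, 7.89 and 7.78 with NaHS. In both genes the groups overlapped, and the adjusted p was 0.983 for rad3 and 0.551 for rad26.

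The 2 mediator genes gave values of opposite sign. crb2, whose product brings Chk1 to damaged sites, had log2 signals of 9.14, 9.23 and 9.16 on untreated and 8.94, 8.99 and 8.77 on NaHS arrays. All treated arrays were below all untreated ones, with a log2 fold change of -0.27 (SE 0.08, adjusted p = 0.123). This passed with the replicate block (adjusted p = 0.0243) and with quantile normalization of the arrays (-0.31, adjusted p = 0.0281). rad4, for a scaffold of replication initiation and checkpoint signalling, had 8.44, 8.87 and 8.73 without and 8.62, 9.13 and 8.84 with NaHS. The groups overlapped, while each treated array was above its untreated partner, and the log2 fold change was 0.19 (adjusted p = 0.644, and 0.0484 with the replicate block).

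Of the effector kinases, cds1, which protects stalled forks, had log2 signals of 9.18, 9.57 and 9.47 without and 9.58, 9.78 and 9.74 with NaHS. The lowest treated array was just above the highest untreated one, and the log2 fold change was 0.30 (SE 0.12, adjusted p = 0.236, and 0.0209 with the replicate block). chk1, which delays entry into mitosis, had 6.07, 4.54 and 5.06 without and 5.79, 4.61 and 4.48 with NaHS. The arrays of each group spread over more than 1 log2 unit, and the log2 fold change of -0.27 had an SE of 0.50 (adjusted p = 0.866). The 14-3-3 gene rad25, whose product binds phosphorylated targets of the checkpoint, was very even within groups, with 12.22, 12.22 and 12.20 on untreated and 12.38, 12.37 and 12.37 on NaHS arrays. The groups did not overlap, and the log2 fold change of 0.16 (SE 0.06) had an adjusted p of 0.192, and of 0.0436 with the replicate block. The second 14-3-3 gene, rad24, had 12.78, 12.80 and 12.68 without and 12.74, 12.66 and 12.92 with NaHS. Its groups overlapped, with a log2 fold change of 0.02 (SE 0.09).

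Mismatch repair was represented by 3 genes for MutS-type proteins, which bind mispaired bases, and 0 passed limma (1 had an unadjusted p below 0.05). msh3 had log2 signals of 8.86, 8.80 and 8.62 without and 8.60, 8.54 and 8.34 with NaHS. All treated arrays were lower, by 0.26, 0.25 and 0.27 within replicates 1, 2 and 3, and the log2 fold change of -0.26 (SE 0.11, adjusted p = 0.214) passed with the replicate block (adjusted p = 0.0128). For msh1, whose counterpart in budding yeast works in mitochondria, the values were 8.67, 9.30 and 9.21 without and 8.57, 8.90 and 8.91 with NaHS. The log2 fold change was -0.26 (SE 0.19, adjusted p = 0.529), and without both arrays numbered 1 it was -0.35 (adjusted p = 0.0378). msh6 had a log2 fold change of 0.14 (SE 0.15).

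Among the genes for single damaged bases and flaps, 0 of 3 passed limma and 1 had an unadjusted p below 0.05. This was rad2, for the flap endonuclease of replication and repair, with 9.27, 9.39 and 9.42 on untreated and 8.96, 9.26 and 9.12 on NaHS arrays. The groups were just apart, and the log2 fold change was -0.25 (SE 0.10, adjusted p = 0.216, and 0.0341 with the replicate block). The abasic site endonuclease genes apn1 and apn2 had log2 fold changes of 0.13 (SE 0.45) and -0.01 (SE 0.12).

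In post-replication repair, where ubiquitin on the replication clamp lets forks pass damage, 0 of 3 genes passed limma and 0 had an unadjusted p below 0.05. rhp6, which encodes the ubiquitin-conjugating enzyme, had 11.07, 11.26 and 11.23 without and 11.26, 11.42 and 11.51 with NaHS. Its groups met but did not overlap, with a log2 fold change of 0.21 (SE 0.10, adjusted p = 0.275, and 0.0314 with the replicate block). rhp18, for the ubiquitin ligase that acts with Rhp6, had 9.49, 10.004 and 9.91 without and 9.28, 9.82 and 9.65 with NaHS. Each treated array was lower than its untreated partner, while the groups overlapped, and the log2 fold change was -0.22 (SE 0.19, adjusted p = 0.635, and 0.0237 with the replicate block). rad8, for a second ligase of the route, had a log2 fold change of 0.01 (SE 0.10). The cohesin gene rad21, the SUMO activation gene rad31 and rad60, for a partner of the SMC5/6 complex, had values of -0.01, -0.16 and 0.05, and 0 of the 3 passed limma with or without the replicate block (0 at an unadjusted p below 0.05).

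Of the genes matched by symbol whose known role lies outside repair, crb3 (probe set 1772402_at) had log2 signals of 10.65, 10.77 and 10.73 on untreated and 10.18, 10.29 and 10.31 on NaHS arrays. The groups did not overlap, and the level fell 1.37-fold, a log2 fold change of -0.45 (SE 0.07, adjusted p = 0.022). It passed without untreated replicate 1 (adjusted p = 0.0462), and without any other single array its adjusted p was between 0.0607 and 0.119. exo2, for the RNA exonuclease, had 10.15, 10.27 and 10.25 without and 10.38, 10.37 and 10.37 with NaHS, a log2 fold change of 0.15 (SE 0.07, adjusted p = 0.267). exo70 had a log2 fold change of -0.02 (SE 0.22).

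All 3 NaHS arrays lay above all 3 untreated arrays in 7 of the 48 genes (14.6%), beside 14.6% of all tested probe sets. They lay below them in 4 (8.33%), beside 13.7%. Groups without overlap in either direction were thus found for 11 of the 48 genes and for 28.4% of all. The 7 genes were rhp16, rad50, rhp54, cds1, rhp6, rad25 and exo2, and the 4 were crb3, crb2, msh3 and rad2.

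Some genes differed more between replicates than between groups. In 9 of the 48 genes the array numbered 1 differed from the mean of arrays 2 and 3 by more than 0.5 log2 units, the same way in both groups, which was found for 10.6% of all tested probe sets. It was higher in 8 of them (8.02% of all) and lower in 1 (2.56%). The 8 genes were exo5, chk1, apn1, rad22, rad3, rhp55, rad21 and exo1, and the gene that was lower was rad16. Across the 48 genes the offsets in untreated and in treated cells had a Pearson correlation of 0.97 and a Spearman correlation of 0.94, and in 41 genes the sign was the same. The genes share the same 6 arrays and are not independent replicates, and over all 4965 tested probe sets the Pearson correlation was 0.87.

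The gene exo5, whose product is a mitochondrial DNA exonuclease in budding yeast, had the largest offset. Its log2 signals were 5.64, 3.15 and 3.18 without and 5.79, 2.92 and 2.95 with NaHS. It was thus above the background level of 3.67 only on the arrays numbered 1, and its log2 fold change of -0.10 had an SE of 1.03 (adjusted p = 0.989). For apn1 the log2 signals were 7.61, 6.47 and 6.49 without and 7.78, 6.55 and 6.64 with NaHS, so that the arrays numbered 1 were higher by 1.13 and 1.18. The offset was 1.26 and 1.24 for chk1, 1.08 and 0.84 for rad22 and 0.74 and 1.02 for rad3, in untreated and treated cells in this order. The part of these offsets in the results was not tested beyond the fits named above. The median standard error of the 48 genes was 0.133 on the log2 scale without and 0.0551 with the replicate block, beside 0.114 and 0.0530 for all tested probe sets.

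**Figure D4:**
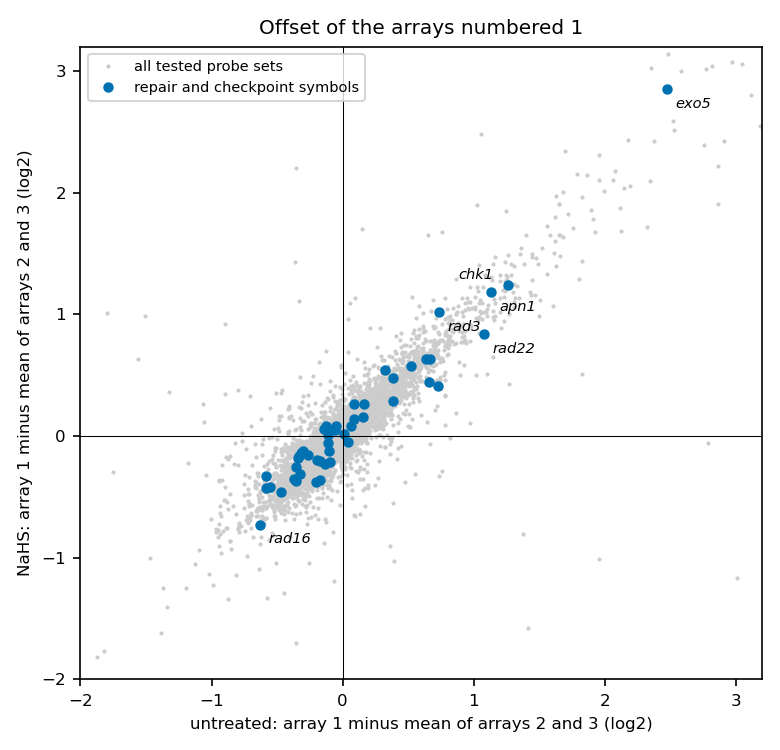
Difference between array 1 and the mean of arrays 2 and 3, in log2 units, in untreated (horizontal axis) and NaHS-treated cells (vertical axis) for all tested probe sets (grey, 14 outside the axes) and the 48 genes (blue). The 48 genes lie along a rising line, from rad16 at -0.63 and -0.73 to exo5 at 2.47 and 2.85.

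Further genes of the same pathways whose symbols fall outside the rule were taken from lists of 91 names, of which 89 are paired with a probe set. As ubc9 and hus5 name the same gene, these are 88 probe sets. limma called 0 of the 88, with 3 higher and 5 lower at an unadjusted p below 0.05 (22.5% of all tested probe sets), and their median log2 fold change was -0.01. With the replicate block 6 were called higher and 14 lower, beside 16.3% and 16.4% of all tested probe sets (32.7% either way). Of the checkpoint partners 0 of 17 were called, of the genes of recombination and end joining 0 of 23, of excision and mismatch repair 0 of 20, of translesion synthesis, post-replication repair and SMC5/6 0 of 18, and of the ribonucleotide reductase genes and their regulators 0 of 5. At an unadjusted p below 0.05 there were 0, 2, 4, 2 and 0 genes in these lists, in this order. Of the 8 cell cycle targets of the factor MBF, which also drives genes of DNA synthesis, 0 were called by limma with or without the block, and 0 had an unadjusted p below 0.05.

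The lowest adjusted p in these lists were those of ssl1 and atl1. ssl1, a subunit of TFIIH, had log2 signals of 10.09, 10.25 and 10.21 without and 10.47, 10.57 and 10.47 with NaHS (log2 fold change 0.32, adjusted p = 0.061). atl1, for a protein that binds alkylated bases, had 8.14, 8.38 and 8.46 without and 7.71, 7.99 and 7.78 with NaHS (log2 fold change -0.50, adjusted p = 0.064). The groups were apart in both genes, and both passed with the replicate block (adjusted p = 0.0111 and 0.0113). The large subunit gene of ribonucleotide reductase, cdc22, differed by -0.17 on the log2 scale (adjusted p = 0.284) and the small subunit gene suc22 by 0.07 (adjusted p = 0.699).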

How the data were processed

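The authors' array service (Shanghai Biochip) hybridised RNA of 6 cultures and made signals with MAS5. What they deposited is a log2 signal for each probe set. Neither the MAS5 version nor its scaling target is given in the sources used here. Blank cells were set to 0 (0.0504% of the cells of tested probe sets, 0 in the 48 genes). In the probe sets for budding yeast, whose means gave the background level of 3.67, 45.0% of the cells were blank and also counted as 0. Tested were 2937 probe sets paired with *S. pombe* genes and 2028 unlisted ones with a mean above 3.67. Control probe sets (213) were left out. The groups were compared by limma 3.58.1 (R 4.3.3), whose moderated test is two-sided and had 4 residual degrees of freedom and 2.02 prior ones. The fit with the replicate block had 2 residual degrees of freedom. All 4965 p-values were adjusted together after Benjamini and Hochberg, and a call needs an adjusted p below 0.05. The study's own test, SAM, was not rerun. The script was checked on simulated data. Python 3.11.15, pandas 2.3.3 and matplotlib 3.10.9 made the tables and plots. Promoter sequences were not analysed here.

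The genes and lists were chosen with earlier results of these data known. All 48 genes may be named. Values of each array are given for the called genes, for those whose groups did not overlap, for those with the highest and lowest mean (rad24 and exo5), and for further genes, ssl1 and atl1 among them, chosen after their values were seen. The genes cdc22 and suc22 were chosen in the same way, and only their log2 fold change and adjusted p are given. exo70 was added to the role lists after the annotation had been read.

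The replicate numbers come from the sample titles and descriptions. Deviations from the group means correlated between arrays of the same number with 0.867, 0.578 and 0.598 for replicates 1, 2 and 3. All were above 0.1, the limit set for using the numbers as a block. Replicates 2 and 3 also correlated across numbers (0.592 and 0.637), so the check sets apart only replicate 1. Deviations within a group cancel out, so the offset of the arrays numbered 1 makes the others correlate under either pairing. The check therefore cannot decide how replicates 2 and 3 pair, and their pairing rests on the labels alone. A partner here means the array of the same number. The main fit has no block, although the limit was met, as the methods name none. Differences between replicate numbers therefore count as error in the main fit. The median SE of the 48 genes was 0.133 in it and 0.0551 with the block. A gene that did not pass the main fit is thus not shown to be unchanged. The labels also give all 6 samples the same biological repeat number (rep1) and do not say which were grown in parallel, so the p-values measure the spread between these samples. The number of arrays limits the precision. Alternatives were a replicate block, quantile normalization, median centring, other sets of probe sets, blank cells left missing, a floor at the background, an intensity trend in the variance, and each array left out. Leaving out both arrays numbered 1 was added after the data had been seen. No gene of the 48 had more than 1 probe set, so another probe set could not be tried. Some genes of these pathways are not reported here.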

Additional observations from a re-analysis of the deposited data

How the results depend on the processing

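The calls of rhp16, rad50, rhp54 and crb3 were kept in all 10 alternatives that leave out no single array, with adjusted p between 0.00454 and 0.0362, and their direction in all fits. With single arrays left out the adjusted p reached 0.119. Of the 48 genes, the replicate block called 8 higher and 5 lower, quantile normalization 3 higher and 2 lower, and the fit without both first replicates 4 higher and 2 lower. With 1 array left out the calls among the 48 ranged from 0 to 3 higher and from 0 to 1 lower. The block, quantile normalization and the fit without both first replicates called 32.7%, 8.62% and 14.3% of all tested probe sets, in this order. Over all 4965 tested probe sets the higher and lower calls were 807 and 815 with the replicate block and 214 and 214 with quantile normalization. They were 346 and 364 without both arrays numbered 1. With 1 array left out they ranged from 67 to 134 higher and from 24 to 97 lower. The fit of annotated probe sets alone had a smaller set of 2937, of which 92 were called higher and 77 lower, or 5.75%. Of the other pathway genes, the block called 6 higher and 14 lower, quantile normalization 1 higher and 1 lower, an intensity trend 1 higher, median centring 1 lower, and the fit without both first replicates 1 higher and 2 lower. The median log2 fold change of the 48 genes was -0.046 after quantile normalization and -0.021 to 0.061 with 1 array left out. The cause of these shifts was not tested.

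All changes of sign were in genes whose log2 fold change was smaller than its SE. After quantile normalization the log2 fold change was -0.052 for mus7, -0.049 for rad13, -0.019 for rad16, -0.018 for rad8 and -0.080 for rhp55. Median centring gave -0.0060 for mus7, and a floor at the background gave 0.051 for exo5. Without both arrays numbered 1 it was 0.053 for apn2, -0.029 for mus7, -0.012 for rad13, -0.021 for rad8 and -0.014 for rad9. A fit without 1 array has unequal groups and no block, so an offset shared by arrays of 1 number enters its fold change. Within replicates 1, 2 and 3, NaHS minus untreated was 0.16, 0.07 and 0.15 for apn1, and 0.15, -0.23 and -0.23 for exo5. The part of such offsets in the ranges that follow was not tested. With 1 array left out, the log2 fold change of 23 genes crossed 0, with the ranges apn1 -0.26 to 0.51, apn2 -0.073 to 0.11, chk1 -0.68 to 0.15, exo1 -0.28 to 0.085, exo5 -1.05 to 0.72, exo70 -0.20 to 0.18, mus7 -0.16 to 0.13, nbs1 -0.022 to 0.18, rad1 -0.33 to 0.0071, rad13 -0.067 to 0.15, rad16 -0.19 to 0.26, rad17 -0.057 to 0.36, rad21 -0.22 to 0.21, rad22 -0.083 to 0.67, rad24 -0.051 to 0.082, rad3 -0.39 to 0.20, rad32 -0.060 to 0.022, rad8 -0.074 to 0.067, rhp23 -0.16 to 0.0035, rhp41 -0.058 to 0.048, rhp42 -0.36 to 0.074, rhp55 -0.19 to 0.24 and uve1 -0.18 to 0.032.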

Other observations

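Genes outside the vegetative repair pathways were read as a check of the cell type and were not chosen by the symbol rule. By limma 1 of 5 genes of M cells rose and 0 fell, 0 of 3 genes of P cells passed (1 had an unadjusted p below 0.05), and of 5 meiosis genes 1 rose and 1 fell. Over all tested probe sets 3.97% rose and 3.67% fell by limma, and 22.5% had an unadjusted p below 0.05. Whether these lists differed from the array as a whole was not tested. dmc1, the recombinase used in meiosis, had log2 signals of 6.12, 5.88 and 5.83 on the untreated and 6.66, 6.51 and 6.40 on the NaHS arrays, and it rose by limma (log2 fold change 0.58, adjusted p = 0.0351). mam1, which exports the pheromone of M cells, also rose (log2 fold change 0.75, adjusted p = 0.0132). The other genes of M cells, mfm1, mfm2, mfm3 and mam2, had log2 fold changes of 0.03, 0.33, -0.16 and 0.26, and the genes of P cells map1, map2 and map3 of 0.23, -0.67 and -0.10. The meiosis gene spo6 fell (log2 fold change -0.44, adjusted p = 0.0489), and mei4, rec8 and mde2 had log2 fold changes of 0.15, -0.33 and 0.23 and did not pass. With single arrays left out, mam1 was called in 4 of 6 fits, dmc1 in 1 of 6 and spo6 in 0 of 6.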
